A study of Saccharomyces cerevisiae with 8 samples.

Results

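Transcripts of the ergosterol pathway and of sterol ester turnover were followed in Saccharomyces cerevisiae MATa cells exposed to Iztli peptide 1 (IP-1), a designed peptide that joins an antimicrobial sequence to the yeast alpha pheromone. The 31 genes were taken by name, or by locus name where the symbol had been updated, with no limit set on their measured values. The list was, however, chosen with earlier results of these data known. All 31 were found on the arrays. ERG2 was printed as 2 features, the second with an unexplained suffix -r, so that 32 of 6336 yeast features belonged to the set. SAY1 was listed under its locus name YGR263C. All 32 features passed the brightness limit in both channels on all 4 arrays, as did 5816 of all 6336 yeast features. Passing meant that each spot was above its surroundings by over 2 SDs of the local background. The limit was low, since 68.1% to 88.8% of empty spots passed it in a channel. For 31 of the 32, the signal was also above the 95th percentile of the 320 empty spots in both channels on every array, the exception being ERG13, the gene of HMG-CoA synthase.

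The strain was BY4741, a haploid line of mating type a with deletions in HIS3, LEU2, MET17 and URA3. Treated and untreated cultures shared this background and the rich medium YPD. Treated cultures received 10 µM IP-1 for 3.5, 7, 15 or 30 min, and untreated cultures were grown for the same time without it. Each exposure had 1 treated culture (labelled with Cy5) and 1 untreated culture (Cy3), hybridised together to 1 array on which each feature was printed as 2 neighbouring spots. The 8 samples of the series are these spots, which share their RNA and were averaged, leaving 1 ratio per exposure and n = 4 arrays. Values below are log2 ratios of IP-1 over untreated after loess normalisation, unless another quantity is named.

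Ergosterol is the main sterol of fungal membranes and the counterpart of cholesterol in animals. Acetyl-CoA is first built into mevalonate and farnesyl diphosphate, which also feeds dolichol, ubiquinone, haem A and prenylated proteins such as a-factor. Squalene is then made, closed to lanosterol, and trimmed in steps that need oxygen and haem to zymosterol and ergosterol. Surplus sterol is stored as steryl ester in lipid droplets and released by hydrolases, and acetylated sterol can be exported from the cell. Transcription of the pathway is driven by the activators Upc2 and Ecm22.

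The arrays differed in quality. The median Cy3 signal was 2.43 to 3.84 times and the median Cy5 signal 1.86 to 3.77 times its local background. The ratios of duplicate spots correlated across features at 0.559 on the 30 min array and at 0.761 to 0.908 on the others, and the ratios of all tested features had an SD of 0.18 at 30 min and 0.35 at 15 min. Among mating-type markers, 7 of 7 a-specific and 4 of 6 alpha-specific features lay above the empty spots in both channels on all arrays, so this measure did not separate the mating types. Of the 4 genes with deletions in BY4741, 3 lay above the empty spots as well. LEU2, among them, gave an untreated signal 240 to 451 times background. Why a gene deleted in the labelled strain gave such a signal was not tested. Exposure, culture pair, labelling and array coincided, so that they cannot be told apart, and the error behind each p-value comes from 4 arrays that also differ in exposure. In a bulk sample, fewer cells of a kind and less RNA per cell cannot be told apart either.

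The mean over the 4 arrays asked which of the genes differed between treated and untreated cells at the exposures as a whole. ERG4, the reductase of the last step to ergosterol, and ERG25, a sterol methyl oxidase between squalene and zymosterol, fell, and no member rose. The test was limma's moderated test of the mean ratio against 0 with Benjamini-Hochberg adjustment over all 6152 tested features. It called 2 of 32 sterol features, or 6.25%, while 8.91% of all tested features were called, 2.08% higher and 6.83% lower. The share of called sterol genes was thus close to that of the whole array. At an unadjusted p under 0.05, 7 of 32 sterol features passed, against 28.2% of all tested features. The median of the 32 means was −0.03, beside 0.01 for all tested features, and 14 means lay above 0 and 18 below. In the plot of mean ratios among all tested features, most sterol features lie within the bulk of the distribution. The quartiles of the sterol means were −0.12 and 0.11, beside −0.11 and 0.11 for all tested features. ERG4, at −0.46, lay in the lower tail, where the SD of all tested means was 0.20.

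**Figure D1:**
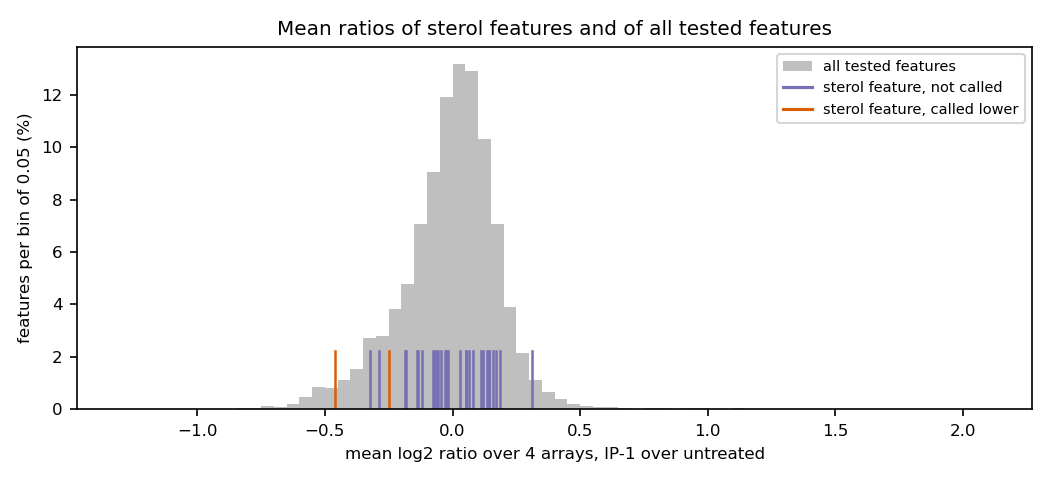
Mean log2 ratio of IP-1 over untreated across the 4 arrays. Grey bars give the percent of the 6152 tested features per bin, and vertical lines mark the 32 sterol features, with the 2 called ones (ERG4 and ERG25) in orange. The sterol means run from −0.46 to 0.31, inside a range of −1.11 to 1.95 for all features.

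The unadjusted 95% interval of the mean lay within 1.5-fold in either direction for 30 of 32 sterol features, beside 93.4% of all tested features. The exceptions were ERG4, with −0.66 to −0.26, and ERG12, with −0.70 to 0.05. All 32 intervals lay within 2-fold. The background correction draws dim ratios toward 0, and with plain subtraction 5 of 32 means grew by over 1.5 times, ERG13 to −0.31, ARE1 to −0.29, ERG10 to 0.22, MVD1 to −0.22 and YEH1 to −0.11.

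ERG4 was at −0.49, −0.27, −0.76 and −0.34 after 3.5, 7, 15 and 30 min. Its mean was −0.46 ± 0.22 (SD, n = 4 arrays; 1.38-fold lower; limma, adjusted p = 0.022). All 8 spots lay below 0. The raw intensity of ERG4 was 2024, 4463, 1889 and 2604 in untreated cells and 1169, 3575, 1399 and 1819 in treated cells. Before normalisation, the median log2 ratio of all tested features was itself below 0, at −0.15, −0.72, −0.04 and −0.10, and that of ERG4 was −0.79, −0.32, −0.43 and −0.52, above the array's median at 7 min. ERG4 was bright, at 20.9 to 25.8 times its local background in untreated cells. With loess run inside each of the 32 printed blocks of the array, its mean was −0.31 (adjusted p = 0.024), and after median centring in place of loess it was −0.32 with adjusted p = 0.122, the 7 min value being then 0.02. Leaving out the 3.5 min or the 7 min array also ended the call (adjusted p of 0.109 and 0.086), which held in 9 of 14 alternative analyses.

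ERG25 was at −0.15, −0.32, −0.23 and −0.30 in the same order. The mean was −0.25 ± 0.08 (SD, n = 4 arrays; 1.19-fold lower; limma, adjusted p = 0.048). The change was smaller than that of ERG4 and more even over the exposures. ERG25 was dimmer than ERG4, at 2.85 to 11.7 times background in untreated and 1.76 to 6.98 times in treated cells. Its signal was lowest at 7 min in untreated cells and at 30 min in treated cells, the arrays with its lowest ratios. All 8 spots were below 0, with the smallest difference at −0.05 for a spot at 3.5 min. The call lay at the edge of the threshold. It ended in 9 of 14 alternative analyses, among them each of those that left out 1 array (adjusted p = 0.068 to 0.205). Treated RNA carried Cy5 on every array, so that a dye effect of a probe would enter each mean. In a fit with 32 further features whose identifiers start with Ara and match no yeast gene, 14 of these were called, all lower. Their part in the values of ERG4 and ERG25 was not tested.

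**Figure D2:**
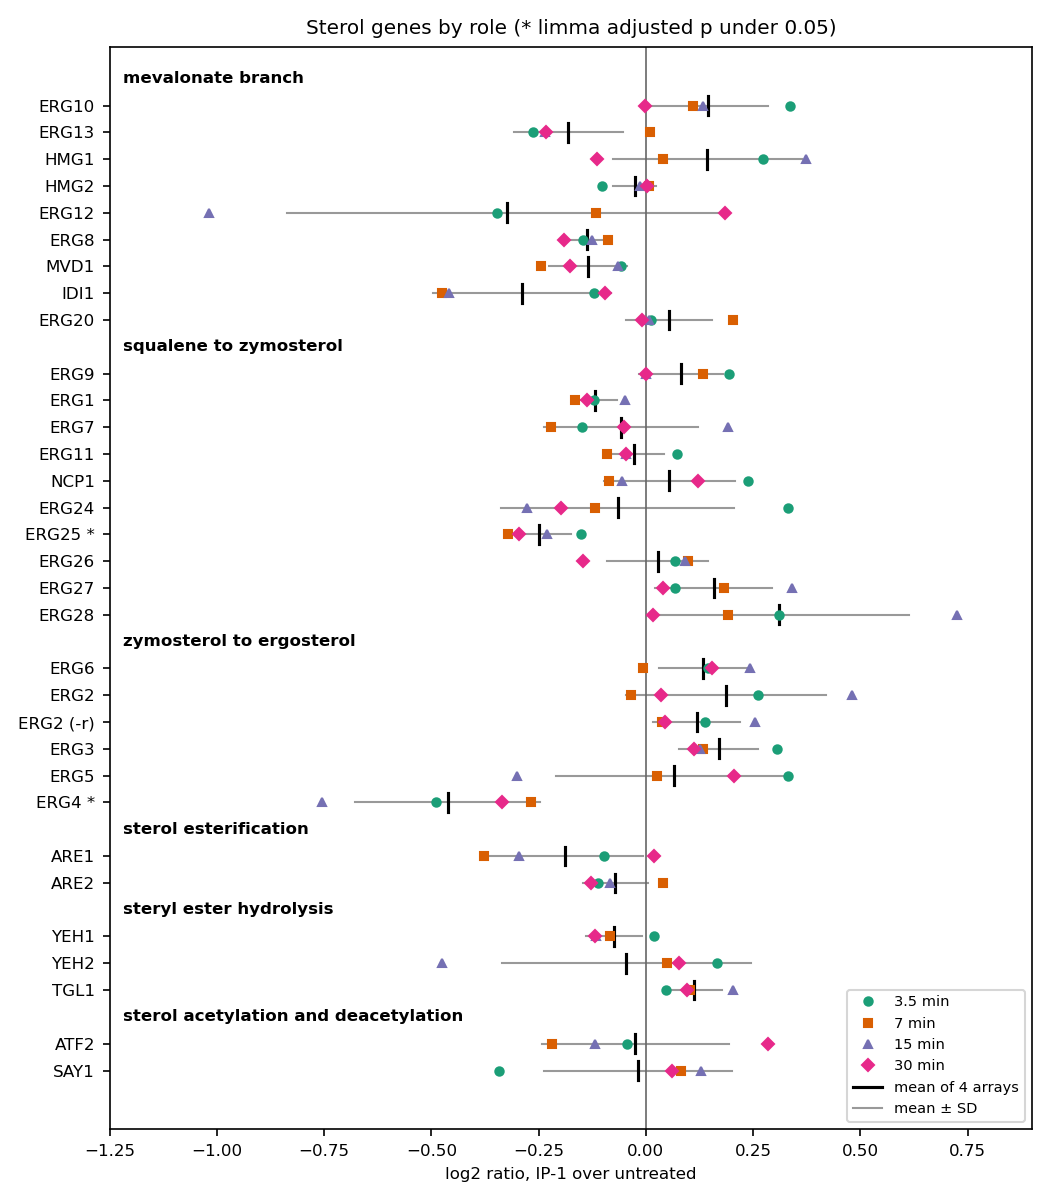
Log2 ratio of IP-1 over untreated for the 32 sterol features, grouped by role. Symbols give the 4 arrays, black ticks the mean and grey lines the mean ± SD over 4 arrays. ERG4 and ERG25 (asterisks) lie below 0 on all 4 arrays, and ERG12 at 15 min (−1.02) and ERG28 at 15 min (0.73) stand farthest out.

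In the mevalonate branch, which makes farnesyl diphosphate from acetyl-CoA, 0 of 9 genes passed the test. The median of the 9 means was −0.14, with 3 above 0 and 6 below. HMG1 and HMG2 encode the HMG-CoA reductase isozymes, the point of strongest control in the pathway. HMG1 was at 0.27, 0.04, 0.37 and −0.11 over the exposures, and HMG2 at −0.10, 0.01, −0.01 and 0.00. Under loess HMG2 thus lay close to 0 throughout, while HMG1 was higher at 3.5 and 15 min. After median centring HMG2 read −0.23, 0.20, 0.34 and −0.01, and HMG1 0.23, −0.09, 0.37 and −0.16. The difference of the 2 genes under loess, 0.17 ± 0.25 (SD, n = 4), gave p = 0.38 in an exact two-sided sign-flip permutation test. The smallest possible value of that test with 4 arrays is 0.13.

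ERG12, mevalonate kinase, was at −0.35, −0.12, −1.02 and 0.19, with a mean of −0.32 ± 0.51 (SD, n = 4; adjusted p = 0.24) that was −0.093 without the 15 min array. Its 15 min value was the lowest single ratio among the sterol features, and its spots there read −0.90 and −1.14. The raw intensity of ERG12 was 1936, 692, 670 and 1381 in untreated and 1212, 460, 367 and 1324 in treated cells. Its log2 ratio before normalisation, −0.68, −0.59, −0.87 and −0.06, was above the array's median at 7 and 30 min. IDI1, the isomerase of isopentenyl diphosphate, was at −0.12, −0.48, −0.46 and −0.10, with a mean of −0.29 ± 0.21 (SD, n = 4; adjusted p = 0.074). IDI1 lay below 0 on 4 of 4 arrays and passed the test in 2 of 14 alternative analyses, the one with duplicate spots as a replicate block (adjusted p = 0.036) and the one with loess inside printed blocks (adjusted p = 0.041).

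ERG8, phosphomevalonate kinase, was at −0.15, −0.09, −0.12 and −0.19, and MVD1, the decarboxylase that follows it, at −0.06, −0.24, −0.06 and −0.18. Both were below 0 on 4 of 4 arrays with means of −0.14, and neither passed (adjusted p = 0.18 and 0.22). ERG13, HMG-CoA synthase, was at −0.26, 0.01, −0.24 and −0.23 (adjusted p = 0.14), with signals near those of empty spots. ERG10, the thiolase of the first step, was at 0.34, 0.11, 0.13 and −0.00, the highest sterol ratio at 3.5 min. ERG20, farnesyl diphosphate synthase, was at 0.01, 0.20, 0.01 and −0.01.

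From squalene to zymosterol, 1 of 10 genes fell (ERG25) and 0 rose, with a median of 0.00 over the 10 means. ERG28, which encodes the scaffold that holds the demethylating enzymes together at the endoplasmic reticulum, had the highest mean of all sterol features over the 4 arrays. It was at 0.31, 0.19, 0.73 and 0.02, with a mean of 0.31 ± 0.30 (SD, n = 4; 1.24-fold; adjusted p = 0.11). Without the 15 min array the mean of ERG28 was 0.17, below those of ERG3 (0.18) and ERG5 (0.19). Its raw intensity was 193, 304, 197 and 175 in untreated and 210, 182, 312 and 184 in treated cells, close to the local background at 30 min (1.44 times in Cy5). ERG28 and ERG25 serve the same demethylation complex and had means of opposite sign. The other enzymes of that complex were ERG26, a dehydrogenase at 0.07, 0.10, 0.09 and −0.15, and ERG27, a reductase at 0.07, 0.18, 0.34 and 0.04. ERG27 was above 0 on 4 of 4 arrays with a mean of 0.16 ± 0.14 (SD; adjusted p = 0.20).

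ERG11, the P450 demethylase that azole drugs inhibit, was at 0.07, −0.09, −0.05 and −0.05, with a mean of −0.03 ± 0.07 (SD, n = 4) and a 95% interval of −0.17 to 0.12. Its 4 ratios thus lay on both sides of 0 and within a narrow band. NCP1, the reductase that hands electrons to Erg11, was at 0.24, −0.09, −0.06 and 0.12. ERG1, squalene epoxidase and the target of terbinafine, was at −0.12, −0.17, −0.05 and −0.14, below 0 on 4 of 4 arrays with a mean of −0.12 ± 0.05 (SD; adjusted p = 0.25). ERG9, squalene synthase, was at 0.19, 0.13, 0.00 and −0.00, and ERG7, lanosterol synthase, at −0.15, −0.22, 0.19 and −0.05.

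ERG24, the reductase that acts on the product of Erg11, went from 0.33 at 3.5 min to −0.12, −0.28 and −0.20 at the later exposures. Its spots lay within 0.09 of each other on every array, and its raw intensity of 20567 to 36628 was far above background in both channels. The slope of ERG24 on log2 of the exposure was −0.17 per doubling (limma, unadjusted p = 0.052; adjusted p = 1.00). After median centring the values were 0.38, 0.26, −0.29 and 0.12, so that the 7 and 30 min values lay above 0 under that setting.

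In the last part of the pathway, from zymosterol to ergosterol, ERG4 was the 1 of 6 features that fell, and the other 5 had means above 0. ERG3, a desaturase, was at 0.31, 0.13, 0.13 and 0.11, above 0 on 4 of 4 arrays, with a mean of 0.17 ± 0.09 (SD, n = 4; adjusted p = 0.14). ERG6, the methyltransferase that marks fungal sterols, was at 0.14, −0.01, 0.24 and 0.15. ERG5, a P450 desaturase, was at 0.33, 0.03, −0.30 and 0.21 with spots within 0.06 of each other. After median centring ERG5 read 0.33, 0.37, −0.22 and 0.44.

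ERG2, a sterol isomerase, was measured by both of its features. The feature without suffix was at 0.26, −0.03, 0.48 and 0.04, with a mean of 0.19 ± 0.23 (SD, n = 4; adjusted p = 0.23). The -r feature was at 0.14, 0.04, 0.25 and 0.04, with a mean of 0.12 ± 0.10 (SD). Both were highest at 15 min and second highest at 3.5 min. They differed by 0.07 ± 0.13 (SD, n = 4; exact sign-flip permutation test, p = 0.50). The smallest possible value of that test is 0.13, so it cannot decide whether the 2 features differed.

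Among the genes of storage and export, 0 of 7 passed the test. The acyltransferases that esterify sterol were at −0.10, −0.38, −0.29 and 0.02 for ARE1 and at −0.11, 0.04, −0.08 and −0.13 for ARE2. ARE1 overlaps YCR050C in the reference annotation, and whether the probes tell strands apart is not known here. Among the steryl ester hydrolases, YEH2 was at 0.17, 0.05, −0.47 and 0.08, TGL1 at 0.05, 0.10, 0.20 and 0.10, and YEH1 at 0.02, −0.08, −0.12 and −0.12. TGL1 was thus above 0 on 4 of 4 arrays, with a mean of 0.11 ± 0.06 (SD, n = 4; adjusted p = 0.28). After median centring YEH2 read 0.03, 0.28, −0.12 and 0.10, so that the size of its 15 min value depended on the normalisation.

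ATF2, which acetylates sterols, was at −0.04, −0.22, −0.12 and 0.28, and SAY1, which removes the acetyl group, at −0.34, 0.08, 0.13 and 0.06. Their means were both −0.02. ATF2 was the highest sterol feature at 30 min. In all, 5 pairs were compared (HMG1 with HMG2, ARE1 with ARE2, YEH1 with YEH2, ATF2 with SAY1, and the 2 ERG2 features). The exact permutation test gave p from 0.38 to 1, and 0.83 to 1 after Benjamini-Hochberg adjustment. That test could not reach 0.05 here, so it cannot decide whether a pair differed.

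The comparison of single exposures asked how large the changes were at each time, and with 1 array each it has no test. At a limit of 2-fold on both spots, 0 sterol features passed at any exposure. Of all tested features, 0.309% were higher and 0.0325% lower after 3.5 min, 0.0488% and 0.0325% after 7 min, 0.439% and 0.878% after 15 min, 0.0163% and 0% after 30 min. At 1.5-fold on both spots, 3 sterol features passed at 15 min, ERG28 higher (2.37% of all tested features) and ERG4 and ERG12 lower (5.1%). At this limit 0 sterol features passed at the other exposures, where 1.17% of all features were higher and 1.02% lower (3.5 min), 0.211% and 0.813% (7 min), and 0.341% and 0.26% (30 min). The medians of the sterol features were 0.03, 0.00, −0.05 and −0.00 after 3.5, 7, 15 and 30 min, beside 0.00, 0.01, 0.01 and 0.00 for all tested features. The SD among sterol features was 0.22, 0.17, 0.34 and 0.15, close to the 0.25, 0.22, 0.35 and 0.18 of all tested features, and was widest at 15 min.

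**Figure D3:**
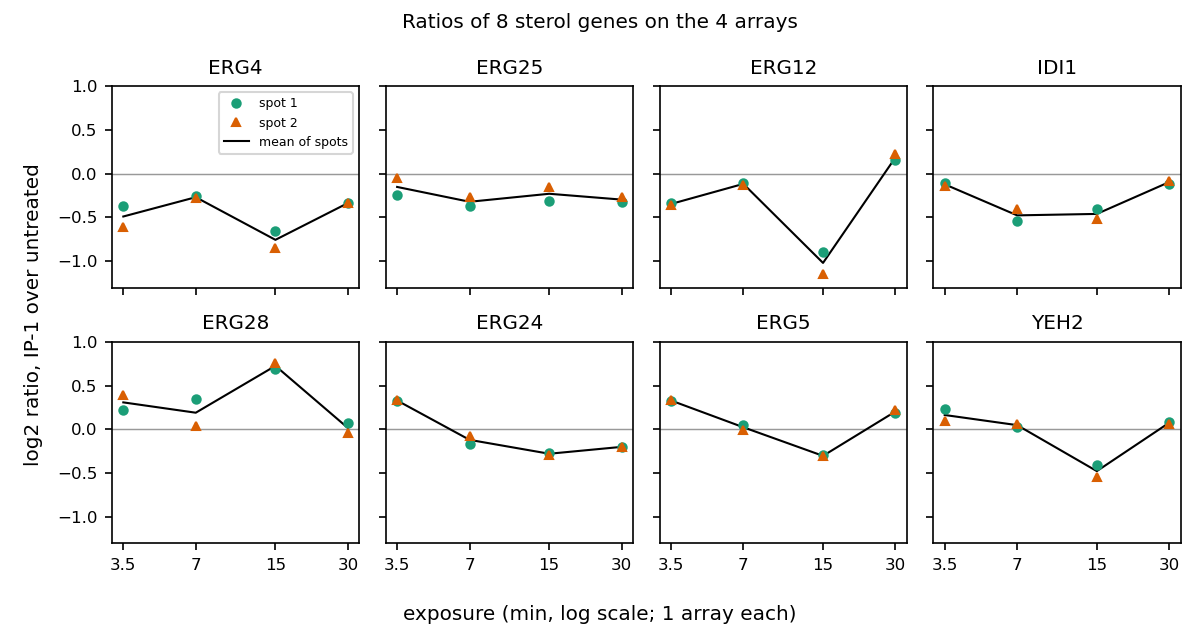
Log2 ratio of IP-1 over untreated against exposure in minutes on a log axis, for 8 sterol genes, with both spots of each array as symbols and their mean as a line. ERG4 and ERG25 stay below 0, ERG12 (−1.02) and YEH2 (−0.47) are lowest at 15 min, ERG28 is highest there (0.73), and ERG24 goes from 0.33 to values below 0.

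Consistency of sign was similar to the rest of the array. Of the 32 sterol features, 5 were above 0 on all 4 arrays (ERG3, ERG27, ERG28, TGL1 and the -r feature of ERG2), or 15.6%, beside 17.5% of all tested features. A further 6 were below 0 on all 4 (ERG1, ERG4, ERG8, ERG25, IDI1 and MVD1), or 18.8%, beside 19.4%.

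The trend with exposure asked which transcripts changed steadily with time. The slope on log2 of the exposure in limma called 0 of 32 sterol features and 0 of 6152 tested features (0%). At an unadjusted p under 0.05 it gave 0 sterol features and 61 of all features (0.992%). The headers of the deposited scanner tables number the arrays 2, 3, 4 and 1 in the order of the labelled exposures, an order with no stated reason. With exposures assigned by those numbers, which was tried after the data were seen, 0 sterol features were called as well and 5 (15.6%) had an unadjusted p under 0.05, beside 13.1% of all tested features. The labelled exposures were kept.

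The calls in the lists that follow were few, and are to be read against the 2.08% of all tested features that rose and the 6.83% that fell. Of 12 regulators of the pathway, 1 rose and 1 fell. ECM22, which encodes an activator of the sterol genes, was at −0.41, −0.33, −0.39 and −0.27 and fell (mean −0.35 ± 0.06, SD, n = 4; adjusted p = 0.019). UPC2, the related activator, was also below 0 on 4 of 4 arrays, at −0.23, −0.28, −0.14 and −0.16, and did not pass (adjusted p = 0.084). Both features were dim, at 1.36 to 2.30 and 1.57 to 2.31 times background in untreated cells, and were not above the empty spots on every array. SUT1, a factor of sterol uptake, rose, with 0.88, 0.57, 1.15 and 0.86 over the exposures (mean 0.86 ± 0.24, SD, n = 4; adjusted p = 0.0045). The median of the 12 means was 0.05.

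Of 7 tested genes of sterol uptake and of mannoproteins induced without oxygen, DAN1 rose and PDR11 fell. DAN1, a cell wall mannoprotein, was at 1.48, 0.73, 0.92 and 0.74 (mean 0.97 ± 0.35, SD, n = 4; adjusted p = 0.0067). PDR11, an ABC transporter of sterol import, was at −0.55, −0.52, −0.45 and −0.49 (mean −0.50 ± 0.04, SD, n = 4; adjusted p = 0.0062). AUS1, the other importer, was at −0.14, 0.05, 0.09 and −0.08, and was not above the empty spots on every array. UPC2 and AUS1 are named as the partners of ECM22 and PDR11, a choice made after their values were seen.

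Among 28 features for sterol transport and lipid storage, 2 fell and 0 rose, against 6.83% and 2.08% of all tested features. DGA1, which makes triacylglycerol for lipid droplets, was at −0.73, −0.57, −1.08 and −0.24, with a mean of −0.65 ± 0.35 (SD, n = 4; adjusted p = 0.020). PLN1, a coat protein of the droplets, was at −0.34, −0.38, −0.31 and −0.34 (adjusted p = 0.018). The highest of this list was a SWH1 feature at 0.18, while the second feature of that gene was at −0.06. These 28 features had a median of 0.01.

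Of 14 genes of the prenyl branches, 1 fell, MRS6, which escorts Rab proteins to prenylation, at −0.55, −0.44, −0.67 and −0.18 (adjusted p = 0.021). The highest of them was MOD5, a tRNA prenyltransferase, with a mean of 0.18 (adjusted p = 0.25). Of 13 tested genes of HMG-CoA reductase turnover, 1 fell, NSG2, a dim feature for a membrane protein that protects Hmg2 from degradation, at −0.31, −0.49, −0.67 and −0.18 (adjusted p = 0.028). NPL4 had the highest mean of these, 0.15 (adjusted p = 0.23). Of 11 genes of haem and electron supply, 0 rose and 0 fell, with means from −0.17 for HEM2 to 0.26 for HEM1 (limma, adjusted p = 0.23 and 0.13). The calls of ECM22, SUT1, PDR11, DAN1, DGA1, PLN1, MRS6 and NSG2 were each made in 9 to 11 of 14 alternative analyses.

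Genes next to the sterol genes on the chromosome gave a local comparison. Of 52 tested neighbours that were no sterol genes, 1 rose and 3 fell, where 2.08% of all tested features rose and 6.83% fell, and none of the 4 was next to ERG4 or ERG25. MVD1 lies directly before AGA1 on the same strand. AGA1, the anchor of the mating agglutinin, was at 2.68, 1.65, 1.97 and 1.51, and MVD1 was below 0 on each of the same arrays. ERG24 and PRM1, a membrane protein gene of mating cells, are transcribed away from each other. PRM1 was at 1.22, −0.08, 2.18 and 0.06 (adjusted p = 0.14), where ERG24 was at 0.33, −0.12, −0.28 and −0.20.

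The neighbours that fell were RSC9, SDH3 and CTK1. RSC9, a chromatin remodeller subunit that converges on ERG13, was at −0.93, −0.82, −0.92 and −0.44. TGL1 lies between SDH3, a subunit of succinate dehydrogenase, and CTK1, a kinase of RNA polymerase II, on the same strand. SDH3 was at −0.41, −0.42, −1.29 and −0.47 and CTK1 at −0.37, −0.31, −0.44 and −0.11, whereas TGL1 was above 0 throughout.

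**Figure D4:**
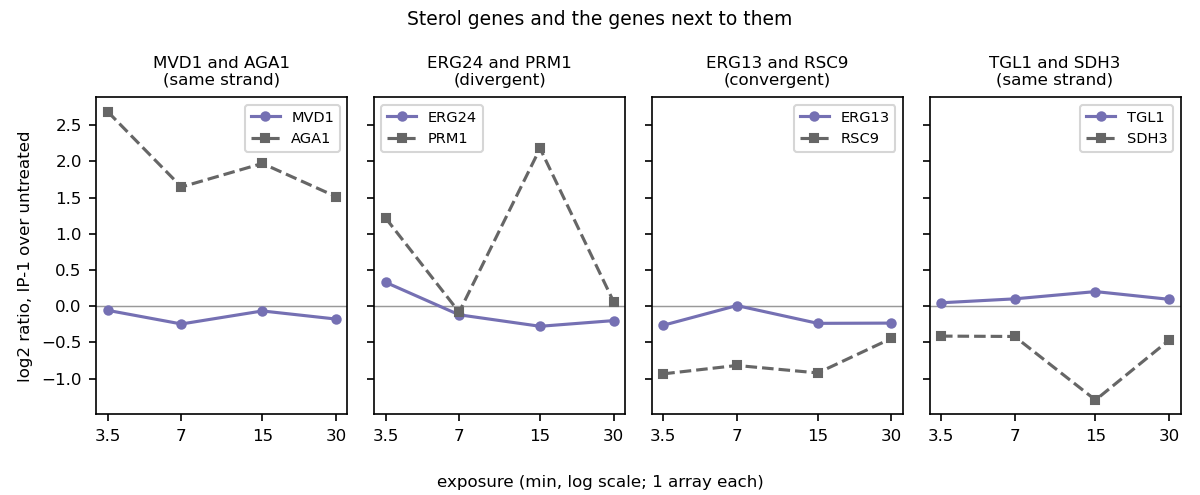
Log2 ratio of IP-1 over untreated against exposure in minutes on a log axis for 4 sterol genes (circles, solid lines) and a neighbouring gene of each (squares, dashed lines), with 1 array per exposure. AGA1 lies at 1.51 to 2.68 while MVD1 lies at −0.24 to −0.06, and SDH3 reaches −1.29 at 15 min while TGL1 is at 0.20.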

How the data were processed

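Per the labels' protocols, Trizol was used to isolate RNA, and the cDNA carried Cy3 for untreated and Cy5 for IP-1 cells. Per the file headers, the deposited scanner tables give the mean raw intensity of each spot and the mean and SD of its local background. The deposited value table holds log10 ratios of raw Cy5 over raw Cy3, which equal the scanner values within 4.98e-07.

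Background was corrected with normexp (offset 50), which draws dim ratios toward 0, and each array was normalised by loess (span 0.3, 4 iterations; empty and Ara spots at weight 0) with limma 3.58.1 in R 4.3.3. Duplicate spots were averaged. A feature was tested if both spots exceeded background by 2 background SDs in a channel on all 4 arrays, which kept 6152; 68.1% to 88.8% of empty spots passed that limit in a channel. Mean and slope were tested two-sided with lmFit and eBayes (Benjamini-Hochberg, adjusted p under 0.05). In simulated data with 200 of 6152 features changed by a log2 of 0.5, 159 were recovered by the mean and 7 others were called. The simulated noise was independent between features and arrays, without dye or array effects. These counts therefore do not give the error rates of the real arrays. Names and neighbours come from RefSeq's R64 table (5763 features found); no build is named for the probes, so no coordinates are given. Other steps used Python 3.11.15. Members, lists and the rule for naming genes (all members, and of other lists the called genes with the highest and lowest) were chosen with earlier results of these data known. Genes beside members were added after seeing the data. Alternatives changed the background correction, normalisation, filter, spots, prior and arrays used.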

Additional observations from a re-analysis of the deposited data

Results flagged for a closer look

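In 5 of the 32 sterol features 1 array stood apart from the other 3 by a gap larger than Dixon's 95% limit. About 1 in 20 groups of like replicates pass that limit by chance, and these arrays are not like replicates. The 5 were ERG13 at 7 min (0.0094, against −0.26 to −0.23 on the others), ERG20 at 7 min (0.20), ERG26 at 30 min (−0.15), ERG3 at 3.5 min (0.31) and SAY1 at 3.5 min (−0.34). The share of all tested features past the limit is not given here, so the count cannot be called particular to sterol genes. None of the 5 genes passed the test of the mean. Since each array is also another exposure, array and time cannot be told apart. Outside the yeast features, 14 of 32 features whose identifiers start with Ara were called lower.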

How the results depend on the processing

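The means of the 32 sterol features were recomputed in 14 alternative analyses. In the 6 that kept all arrays and could move a mean, 24 of 192 means lay on the other side of 0. After median centring in place of loess, 304 features were called (78 higher, 226 lower) and 0 sterol features, the sterol median was 0.021, and the means on the other side were 0.077 for HMG2, 0.0020 for ERG7, −0.0087 for NCP1, 0.12 for ERG24, −0.039 for ERG26, 0.073 for YEH2 and 0.077 for SAY1. The deposited ratios without centring called 59 features (7 higher, 52 lower), 0 of them sterol features, and their median over all features was −0.23, with a sterol median of −0.21. On that scale ERG10 was at −0.19, HMG1 −0.18, ERG20 −0.21, ERG9 −0.20, NCP1 −0.22, ERG26 −0.29, ERG27 −0.081, ERG6 −0.12, ERG2 −0.046, its -r feature −0.075, ERG3 −0.0048 and TGL1 −0.17. Relative to the median of all features, 26 of 32 kept their side of 0. The first spot alone gave −0.0093 for ERG20, the second −0.0017 for ERG26, 0.0013 for ATF2 and 0.0045 for SAY1, and loess within printed blocks, chosen after seeing the data, gave −0.016 for ERG26. Background subtraction and the second spot alone each called 1 sterol feature, ERG4. A trended and robust prior called 0 of all features and 0 sterol features (limma, 1722 at an unadjusted p under 0.05).

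Without 1 array, 10 to 575 features were called, 12 without 3.5 min, 10 without 7 min, 467 without 15 min and 575 without 30 min, and 0 to 1 sterol features. Then 7 of 128 means crossed 0, with ranges of −0.13 to 0.041 for ATF2 (0.0070 without 15 min), −0.20 to 0.0048 for ERG24, −0.023 to 0.19 for ERG5, −0.0071 to 0.10 for NCP1, −0.067 to 0.090 for SAY1 and −0.12 to 0.10 for YEH2. The slope called 15 features without 15 min and 30 without 30 min, 0 of them sterol features. At single exposures, a limit of 1.5-fold gave 3 sterol features at 15 min, and the deposited ratios past 2-fold gave 4 at 7 min, all lower (12.5%), beside 17% of all tested features. Replicate numbers are spots of the same array and pair nothing across exposures. A fit with the replicate block called 782 features and 3 sterol features, with IDI1 added. The cause of these differences was not tested. Signal close to background limits many of the genes, since 17 of 32 sterol features were under 2 times background in a channel of an array.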
